A study of Mus musculus with 3 samples.

Results

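Vcan, Mpeg1, Fn1, Thbs1 and F13a1 are genes of monocytes, macrophages and the extracellular matrix, and their levels were followed in mouse bone marrow (BM) over 5 days of treatment with LECT2, a cytokine that the liver secretes into the blood. The 5 genes were chosen by their measured values in these same libraries, mainly for the rise of Vcan and Mpeg1, out of 17250 gene names with reads. Each had 1 row in the tables, and all 5 reached 1 RPKM (reads scaled to the length of the gene and to the reads on all genes of the library) in 1 or more libraries, Vcan from 3 days on and the others in every library. The mice were male C57BL/6 mice 6 to 8 weeks old with no genetic change. Recombinant LECT2 was given under the skin once daily at 300 μg per kg for 3 or 5 days, and the mice of the remaining library had 0 days of it. Cells flushed from the femur, tibia, pelvis and humerus are described without a sort in the labels and methods, although a supplementary description calls the sequenced cells mononuclear BM cells. Whether granulocytes were depleted is thus not settled. The late neutrophil markers given further on summed to 41789 RPKM or more in every library, although Csf3r among them stayed below 1 RPKM. Each time point had 1 library and the number of mice in it is not given in the sources used here, so every difference is described without a test. The reads on genes numbered 15523952 at 0 days, 15146983 at 3 days and 15514673 at 5 days.

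Monocytes arise in the BM from granulocyte-monocyte progenitors and leave for the blood and tissues, where some become macrophages. Besides their antimicrobial proteins they make secreted matrix and clotting proteins. Versican (Vcan) is a large proteoglycan that binds hyaluronan, fibronectin (Fn1) is an adhesive glycoprotein bound by integrins, and thrombospondin-1 (Thbs1) is a matricellular protein that binds CD47 and CD36 and activates TGF-β. F13a1 encodes the A subunit of coagulation factor XIII, the transglutaminase that crosslinks fibrin and fibronectin, and Mpeg1 encodes perforin-2, a pore-forming protein of macrophages that acts on bacteria.

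Vcan (Entrez 13003) lies on chr13:89655312-89742509 of GRCm38, on the minus strand, and its longest coding transcript in GENCODE M21 has 15 exons and 12427 bases. Mpeg1 (17476) lies at chr19:12460779-12465283 on the plus strand in 2 exons. Fn1 (14268) lies at chr1:71585520-71653200 on the minus strand, and its longest coding transcript has 46 exons and 8315 bases. Thbs1 (21825) lies at chr2:118111876-118127133 on the plus strand in 22 exons. F13a1 (74145) lies at chr13:36867178-37050244 on the minus strand in 15 exons. The authors' tables give lengths of 12432, 4348, 8312, 5802 and 3879 bases in the same order, so Vcan was the longest and F13a1 the shortest of the 5. Exons of Fn1 share 197 bases, those of Thbs1 98 bases and those of F13a1 14 bases with a gene on the other strand (Apol7d, Gm29233 and Gm30489). The library kit does not mark the strand, so reads from these stretches cannot be told apart.

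The promoters are shown because the monocyte factors PU.1 and C/EBP act through such windows and because Vcan, Mpeg1 and F13a1 were all highest at 5 days. RefSeq promoter entries (GRCm38.p6) matched 3 of the 5 genes, and the 250 bases before the start site are printed, 5′ to 3′ on the strand of the gene, with the matches to the searched motifs in capitals. The windows are chr13:89742513-89742762 (minus strand) for Vcan, chr19:12460520-12460769 (plus strand) for Mpeg1 and chr13:37050245-37050494 (minus strand) for F13a1, which has a second start site not shown. Fn1 and Thbs1 had no entry under these symbols.
Vcan: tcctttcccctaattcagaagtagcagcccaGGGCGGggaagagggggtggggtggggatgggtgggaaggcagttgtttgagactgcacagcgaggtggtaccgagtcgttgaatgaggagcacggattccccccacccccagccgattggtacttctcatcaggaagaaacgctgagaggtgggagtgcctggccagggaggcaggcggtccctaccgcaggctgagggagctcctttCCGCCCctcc
Mpeg1: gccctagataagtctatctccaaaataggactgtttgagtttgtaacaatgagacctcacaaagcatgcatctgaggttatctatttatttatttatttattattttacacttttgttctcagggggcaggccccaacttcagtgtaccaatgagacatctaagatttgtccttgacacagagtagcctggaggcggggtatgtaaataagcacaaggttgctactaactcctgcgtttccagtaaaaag
F13a1: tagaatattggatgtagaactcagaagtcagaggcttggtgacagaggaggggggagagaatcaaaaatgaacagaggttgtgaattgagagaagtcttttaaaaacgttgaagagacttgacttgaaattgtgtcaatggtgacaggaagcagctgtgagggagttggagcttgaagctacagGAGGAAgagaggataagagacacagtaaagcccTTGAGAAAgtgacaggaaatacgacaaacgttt
Both strands were searched for the PU.1 core GAGGAA, the C/EBP pattern TTNCNNAA, the AP-1 site TGANTCA, the GC box GGGCGG, the RUNX core TGTGGT and the TATA box TATAAA. The Vcan window held 2 GC boxes, starting 219 and 10 bases before the start site. The printed F13a1 window held the PU.1 core at 66 bases and the C/EBP pattern at 33 bases before the start. The window of the second F13a1 start site and the Mpeg1 window held none of the 6 motifs. Of all 32851 windows of this length, 32.7% held the GC box, 23.3% the PU.1 core, 36.8% the C/EBP pattern, 6.75% the AP-1 site, 14.0% the RUNX core and 12.4% the TATA box. These matches describe letters and not bound sites.

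The 5 genes did not follow a single course after LECT2 treatment. Vcan, Fn1 and F13a1 were higher at 3 days than at 0 days and higher again at 5 days, each by at least 2-fold at both steps in the deposited RPKM. Mpeg1 was also higher at each step, by less. Thbs1 went against the label of a rising gene, being higher at 3 days and lowest at 5 days. Per length, the order of the levels at 0 days was Thbs1, Mpeg1, F13a1, Fn1 and Vcan from high to low, and it was the same at 3 days. At 5 days the order was F13a1, Mpeg1, Fn1, Thbs1 and Vcan. The gap between each pair of neighbours exceeded their counting error, and the spread between mice was not measured.

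**Figure D1:**
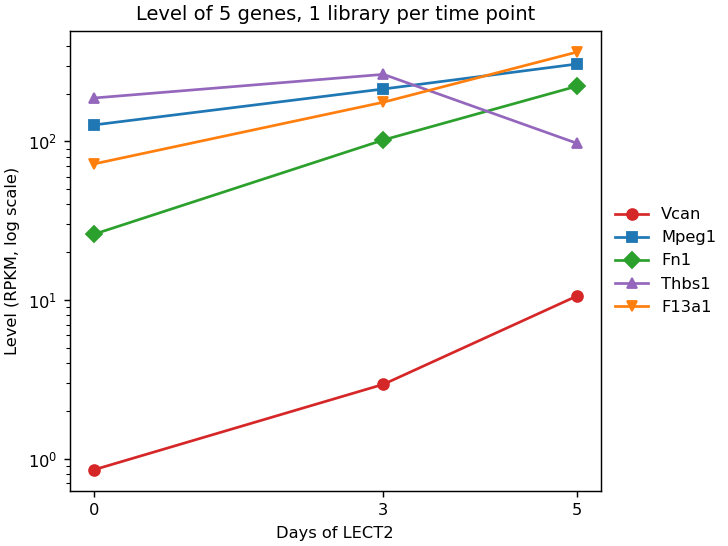
Level in RPKM (vertical axis, log scale) of the 5 genes against days of LECT2 (horizontal axis), 1 point per library with no error bar because each time point had 1 library. Vcan, Fn1, F13a1 and Mpeg1 were highest at 5 days, whereas Thbs1 was at 265 RPKM at 3 days and 97.4 RPKM at 5 days.

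Vcan had 164, 554 and 2040 reads at 0, 3 and 5 days, or 0.850, 2.94 and 10.6 RPKM. It was the lowest of the 5 genes in every library and its level rose at each step. Its level moved from the percentile 30.1 of genes with reads at 0 days to 60.3 at 5 days. The log2 ratio of RPKM + 0.1, the scale of all ratios below, was 1.68 at 3 against 0 days, where the 95% exact interval of the ratio of the counts was 1.54 to 2.05. The 5-day library against the 0-day library gave 3.49 (3.41 to 3.88). Without the pseudocount Vcan was 12.4-fold higher (10.6 to 14.7). Folds printed for the 5 genes, like all intervals, carry no pseudocount. The intervals cover counting error only and treat PCR reads as independent molecules. Among 11497 genes that reached 1 RPKM at 0 or 5 days, 13 had a higher ratio than Vcan.

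Fn1 had 3348, 12855 and 28707 reads, or 25.9, 102 and 223 RPKM. It had the largest ratio of the 5 genes at 3 against 0 days and came after Vcan at 5 days. The log2 ratio was 1.97 (1.92 to 2.03) at 3 against 0 days and 3.10 (3.05 to 3.15) at 5 against 0 days, or 8.58-fold (8.28 to 8.89). The ratio of 20 genes was higher at 5 against 0 days. In RPKM, Fn1 went from the percentile 81.8 of genes with reads to 98.3.

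F13a1 had 4338, 10379 and 21981 reads, or 72.0, 177 and 365 RPKM. It was the most abundant of the 5 genes at 5 days and ranked 160 of 16142 genes with reads in that library. The log2 ratio was 1.29 (1.24 to 1.35) at 3 against 0 days and 2.34 (2.29 to 2.39) at 5 against 0 days, or 5.07-fold (4.91 to 5.24). In this last comparison 67 genes had a higher ratio.

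Mpeg1 had 8565, 14092 and 20722 reads, or 127, 214 and 307 RPKM. It was already abundant at 0 days, at the percentile 96.3 of genes with reads, and changed least of the 4 genes that were highest at 5 days. The log2 ratio was 0.75 (0.71 to 0.79) at 3 against 0 days and 1.27 (1.24 to 1.31) at 5 against 0 days, or 2.42-fold (2.36 to 2.48). For 900 genes the ratio at 5 against 0 days was higher.

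Thbs1 had 16900, 23250 and 8767 reads, or 188, 265 and 97.4 RPKM. The 3-day library was the highest and the 5-day library the lowest. The log2 ratio was 0.50 (0.47 to 0.52) at 3 against 0 days, -0.95 (-0.98 to -0.91) at 5 against 0 days and -1.44 (-1.48 to -1.41) at 5 against 3 days. At 5 days its level was 51.9% of that at 0 days and 36.8% of that at 3 days. The ratio at 5 against 0 days was lower for 757 genes.

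The share of all genes past the same fold gives the setting of these counts, from which nothing is read, because the 5 genes were picked on the same ratios. The 3 comparisons share their libraries and are not independent. At 3 against 0 days 3 of the 5 genes (Vcan, Fn1 and F13a1) were at least 2-fold higher, beside 4.08% of 11325 genes tested. At 5 against 0 days 4 of the 5 were at least 2-fold higher, beside 15.5% of all genes, and none was at least 2-fold lower, beside 5.91%. At 5 against 3 days Vcan (log2 ratio 1.81), Fn1 (1.12) and F13a1 (1.05) were at least 2-fold higher, beside 1.95% of 11375 genes. Thbs1 alone was at least 2-fold lower in that comparison, beside 3.45%, and Mpeg1 was at 0.52. Around the 2-fold line at 5 against 0 days, Mpeg1 at 1.27 was the nearest of the 5 inside it and Thbs1 at -0.95 the nearest outside it.

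All 5 genes were longer than most, and the ratios of all genes moved with length. Genes were divided into 10 length classes of equal size. In the shortest class, up to 1050 bases, the median log2 ratio was -0.49 at 3 against 0 days and -0.43 at 5 against 0 days. In class 8, which holds Mpeg1 and F13a1, it was 0.30 and 0.58. In the longest class, from 5801 bases, which holds Vcan, Fn1 and Thbs1, it was 0.55 and 0.85. Of the genes in this longest class 39.6% rose by 2-fold or more at 5 against 0 days and 1.23% fell by as much. Of the 1140 genes of this class 14 had a lower ratio than Thbs1. With 5802 bases Thbs1 sits at the short edge of the class, and in class 9 the median was 0.42 at 3 against 0 days and 0.66 at 5 against 0 days, with 1.93% at least 2-fold lower at 5 days. Within the same class 1 gene had a higher ratio than Vcan and 2 had a higher ratio than Fn1. In class 8, of 1144 genes, 5 were higher than F13a1 and 115 higher than Mpeg1.

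**Figure D2:**
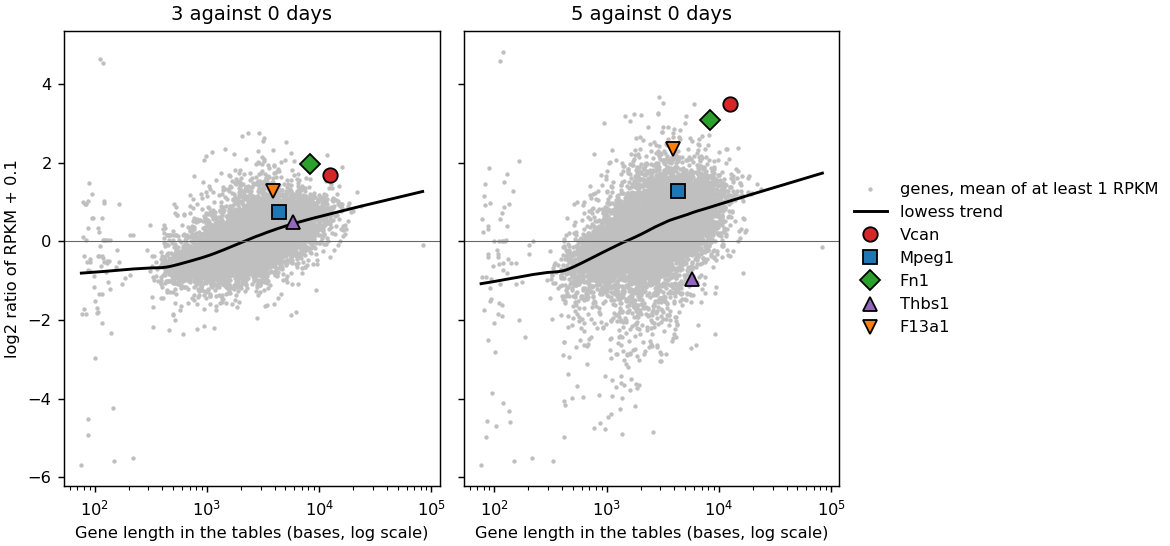
Log2 ratio of RPKM + 0.1 (vertical axis) against gene length in bases (horizontal axis, log scale) for all genes whose mean was 1 RPKM or more (grey points), at 3 against 0 days (left) and 5 against 0 days (right). The black line is the lowess trend, and at 5 against 0 days Vcan, Fn1, F13a1 and Mpeg1 lie above it by 2.47, 2.23, 1.78 and 0.67, whereas Thbs1 lies below it.

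When the trend on length was subtracted, the ratio at 5 against 0 days was 2.47 for Vcan, 2.23 for Fn1, 1.78 for F13a1, 0.67 for Mpeg1 and -1.68 for Thbs1. The subtracted trend was 1.02 for Vcan and 0.56 for F13a1. Vcan, Fn1 and F13a1 remained at least 2-fold higher, beside 5.05% of all genes, Mpeg1 no longer was, and Thbs1 became at least 2-fold lower, beside 7.61%. At 3 against 0 days the values were 0.98 for Vcan, 1.40 for Fn1, 1.01 for F13a1, 0.42 for Mpeg1 and 0.05 for Thbs1. Fn1 and F13a1 were then at least 2-fold higher, beside 2.59% of all genes, with F13a1 and Vcan close to the line on either side. With the median of the length class subtracted instead, Vcan was at 1.13 and F13a1 at 0.98, so these 2 calls depended on how length was treated and that of Fn1 (1.42) did not. With the trend removed the 3-day excess of Thbs1 was no longer seen. At 5 against 3 days the values were 1.48 for Vcan, 0.81 for Fn1, 0.75 for F13a1, 0.23 for Mpeg1 and -1.74 for Thbs1. Vcan was at least 2-fold higher there, beside 0.659% of all genes, and Thbs1 at least 2-fold lower, beside 4.93%. What the trend on length comes from was not tested.

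The 10 most abundant genes held 12.5%, 10.4% and 5.38% of the reads at 0, 3 and 5 days, and the median log2 ratio of all genes was 0.09 at 3 against 0 days and 0.31 at 5 against 0 days. TMM scaling, which sets the libraries level on the bulk of the genes, brought these medians to 0.01 and 0.01. With it the ratio at 5 against 0 days was 3.20 for Vcan, 2.79 for Fn1, 2.03 for F13a1, 0.97 for Mpeg1 and -1.25 for Thbs1. In this comparison 3 of the 5 genes were at least 2-fold higher with TMM scaling, beside 832 of 11497 genes. For the step from 3 to 5 days TMM scaling gave 1.59 for Vcan, 0.90 for Fn1 and 0.82 for F13a1. Of the 5 genes Vcan alone was then at least 2-fold higher at this step, beside 74 of 11375 genes. At 5 against 0 days Mpeg1 was thus short of 2-fold with TMM scaling, as with median-of-ratios scaling (0.98). It was past 2-fold with scaling on the reads outside the 100 most abundant genes (1.07). Thbs1 was more than 2-fold lower at 5 against 0 days with TMM scaling.

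**Figure D3:**
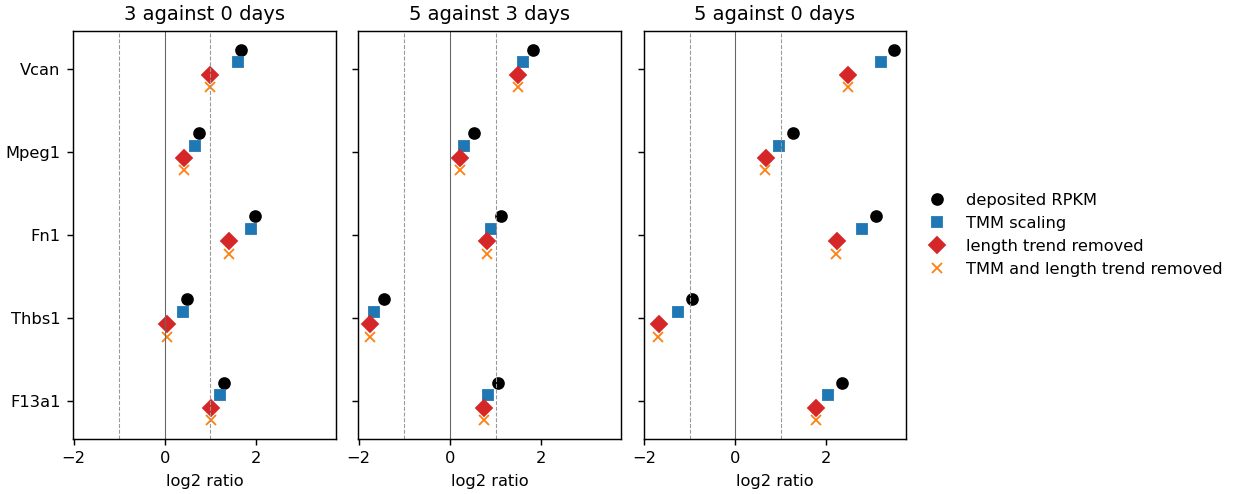
Log2 ratio (horizontal axis) of the 5 genes in the 3 comparisons with the deposited RPKM (black circles), TMM scaling (blue squares), the length trend removed (red diamonds) and both (orange crosses). Dashed lines mark 2-fold, and at 5 against 0 days Vcan, Fn1 and F13a1 are beyond the line in all 4 settings, whereas Mpeg1 is beyond it at 1.27 with the deposited RPKM and short of it at 0.97, 0.67 and 0.66 with the others.

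Vcan has several isoforms that differ by their long glycosaminoglycan-bearing exons, and the tables give 1 length for them all. For the 4 long coding transcripts in GENCODE M21, of 2321, 5702, 8332 and 12427 bases, the reads at 5 days amount to 56.7, 23.1, 15.8 and 10.6 RPKM. The level of Vcan relative to the other genes thus depends on the isoform taken. Its ratio at 5 against 0 days with the trend removed was 3.34 at the shortest of these lengths and 2.47 at the longest, beyond 2-fold at each. At 3 against 0 days it ran from 1.73 to 0.98. Which isoforms were present was not measured.

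The genes whose course was most like each of the 5 were taken among 6169 genes whose mean was 10 RPKM or more, by the distance between the pairs of log2 ratios at 3 against 0 days and 5 against 3 days, over 3 libraries. Nearest to Vcan were Fn1 (distance 0.747), Ankrd52 (0.792) and F13a1 (0.856). Ankrd52 was also nearest to Fn1 (0.409), with 4.53, 13.7 and 28.0 RPKM at 0, 3 and 5 days. Few of the genes searched thus lay near Vcan or Fn1. Vcan itself had a mean of 4.79 RPKM, so genes at its own level were not searched. Nearest to F13a1 were Foxm1, a cell-cycle transcription factor (0.225), Xpo5, which exports miRNA precursors from the nucleus (0.240), and Tifab (0.252), with 20.9, 43.2 and 86.6 RPKM for Tifab. Mpeg1 had much closer neighbours in C2cd3 (0.00475), Sh3bp1 (0.0126) and Pi4ka (0.0226). Thbs1 lay closest to Padi4 (0.0211), the enzyme of neutrophils that converts arginine to citrulline in histones, Cd300lf (0.0244) and Tinagl1 (0.0381). Padi4 had 74.5, 104 and 38.1 RPKM at 0, 3 and 5 days, and Cd300lf, a myeloid inhibitory receptor, had 54.5, 77.0 and 27.8 RPKM. Both shared the 3-day maximum and 5-day minimum of Thbs1. With the length trend removed the nearest gene became Ms4a6d for Vcan (0.522), Zfp511 for Mpeg1 (0.00572), Klrb1f for Fn1 (0.275), Actn1 for Thbs1 (0.0415) and Ankrd52 for F13a1 (0.0811), so the neighbours depended on length.

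Other monocyte genes were set beside the 5 as a list of 40, all of which reached 1 RPKM in a library. By 5 days, against 0 days, 14 of 40 (35.0%) were at least 2-fold higher, beside 15.5% of all genes, 4 were lower by as much, beside 5.91%, and the median was 0.66, beside 0.31 for all genes. With the length trend removed 12 were higher and 4 lower by 2-fold, beside 5.05% and 7.61% of all genes, and the median was 0.48. With TMM scaling 8 of 40 were at least 2-fold higher, beside 832 of 11497 genes, and the median was 0.35. At 3 against 0 days 2 of 40 were at least 2-fold higher, beside 4.08% of all genes, and the median was 0.42. Tifab had the highest ratio of the list at 5 days (2.05). Vcan, Fn1 and F13a1 lay above every one of the 40, whereas 8 of the 40 lay above Mpeg1 and 36 above Thbs1. Because the 5 genes were picked by their values in these libraries, nothing is read from these places. With the length trend removed 1 of the 40, Cd300e at 1.80, lay above F13a1 at 1.78, a gap far within counting error since Cd300e had 9 reads at 0 days and 44 at 5 days.

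The course differed among the monocyte genes. Genes named in this paragraph other than Lyz2, Ly6c2 and Psap, the most abundant of the list, and Slpi, its lowest ratio, were chosen after their values were seen. Lyz2, the lysozyme of myeloid cells, was at 3878, 5120 and 3898 RPKM, and its log2 ratio at 5 against 0 days was 0.01. Ly6c2, the surface marker of classical monocytes, was at 932, 993 and 1138 RPKM, and Psap, the precursor of the saposins, at 614, 798 and 1083 RPKM. None of these changed by 2-fold. The chemokine receptor Ccr2, which monocytes need to leave the BM, rose from 45.1 to 85.8 and 142 RPKM (log2 ratio 1.65 at 5 against 0 days, 1.12 with the length trend removed). Csf1r, the receptor of the macrophage growth factor, rose from 26.7 to 49.6 and 85.3 RPKM (1.67 and 1.11). Both are of much the same length as F13a1 and rose by less. Among short genes, Cd68, a lysosomal protein of macrophages, rose from 56.1 to 90.8 and 136 RPKM (1.27, and 1.50 with the trend removed), and Ms4a6c from 85.9 to 138 and 222 RPKM (1.37 and 1.24). Of the 20 monocyte genes shorter than 2000 bases 6 were at least 2-fold higher at 5 days, and of the 20 longer ones 8 were. Over all genes the share ran from 3.62% to 8.88% in the length classes up to 2275 bases and from 11.6% to 39.6% in those above. With the trend removed these counts were 7 and 5, beside 5.05% of all genes. The 4 that fell were Slpi (-2.05), Cd14 (-1.99), Nr4a1 (-1.87) and Fcgr4 (-1.39). Fewer cells of a type and less RNA per cell cannot be told apart in these mixed BM libraries.

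**Figure D4:**
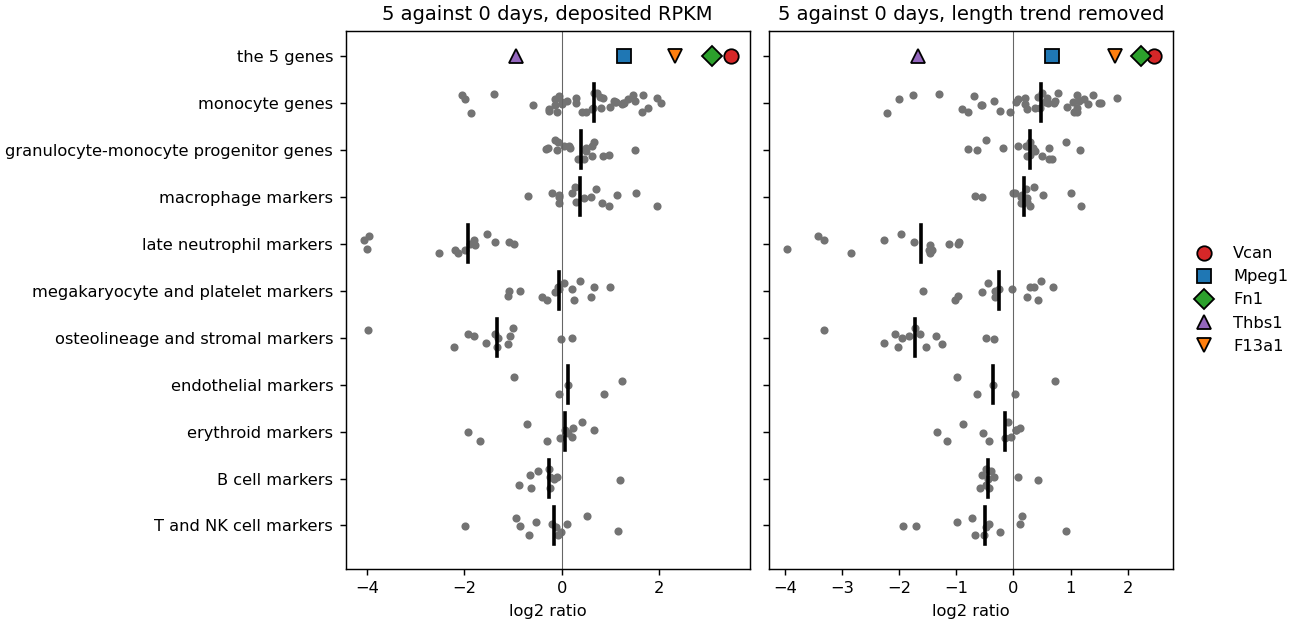
Log2 ratio at 5 against 0 days (horizontal axis) of the 5 genes (coloured symbols) and of the tested genes of 10 marker lists (grey points, 1 per gene; the black bar is the median), with the deposited RPKM (left) and the length trend removed (right). The late neutrophil markers have a median of -1.93 on the left and -1.61 on the right. Vcan and Fn1 lie to the right of every point of every list in both panels, but the 5 genes were picked by their values in these libraries.

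Granulocyte-monocyte progenitor genes gave the stage before monocytes. Of 18 tested 1 was at least 2-fold higher at 5 against 0 days, beside 15.5% of all genes, and the median was 0.40. That gene was Mpo, myeloperoxidase, at 435, 581 and 1237 RPKM. Of 16 macrophage markers tested, 3 were at least 2-fold higher, a share near the 15.5% of all genes. They were Siglec1, the CD169 of BM macrophages (1.95), Mertk, a receptor for the uptake of dying cells (1.54), and the haemoglobin scavenger receptor Cd163 (1.14). Cd163 was short of 2-fold with the length trend removed (0.52) and with TMM scaling (0.84). The median of the macrophage markers was 0.37, and 0.19 with the length trend removed. With TMM scaling the medians of these lists were 0.09 and 0.07, beside 0.01 for all genes. None of the tested genes of either list came up to the ratio of F13a1, a gene picked by its values in these libraries.

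The tested late neutrophil markers were lower at 5 than at 0 days, mainly through the step after 3 days. Of 14 tested, 13 were at least 2-fold lower at 5 against 0 days, beside 5.91% of all genes, with a median of -1.93, and their summed level was 151445, 117144 and 41789 RPKM at 0, 3 and 5 days. At 3 against 0 days the median was -0.19 and 1 was at least 2-fold lower, beside 2.41% of all genes. These markers are mostly short, and with the length trend removed this median was 0.13. In that setting 1 was at least 2-fold higher, beside 2.59% of all genes, and none lower, so the direction at 3 days depended on length. Between 3 and 5 days, when Thbs1 fell, 13 of the 14 were at least 2-fold lower, beside 3.45% of all genes, and none was higher, with a median of -1.66. Their part in the results for the 5 genes was not tested.

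Platelets carry Thbs1, Fn1 and F13a1, so 17 megakaryocyte and platelet markers were set beside them. The summed level was 88.1, 56.0 and 77.3 RPKM at 0, 3 and 5 days. Of 15 tested at 5 against 0 days none was at least 2-fold higher, beside 15.5% of all genes, and 2 were at least 2-fold lower, beside 5.91%. Their median was -0.05, beside 0.31 for all genes. The steps differed in direction, since the median was -0.37 at 3 against 0 days, with 3 of 14 at least 2-fold lower, beside 2.41% of all genes, and 0.66 at 5 against 3 days, with 11 of 15 above 0. Pf4 (1.48), Ppbp (1.42) and Treml1 (1.64, from 5 and 20 reads) were at least 2-fold higher at 5 against 3 days, beside 1.95% of all genes. In the deposited RPKM F13a1 and Fn1 were at least 2-fold higher at both steps. Pf4, a chemokine of platelet granules, was at 11.3, 2.15 and 6.18 RPKM. Osteolineage and stromal cells also make Fn1, Thbs1 and Vcan. Of 13 of their markers tested 11 were at least 2-fold lower at 5 against 0 days, beside 5.91% of all genes, with a median of -1.34, and the summed level was 117, 104 and 44.5 RPKM. Only 2 of 13 were above 0 at 3 against 0 days, when Thbs1 was at 0.50, and the median was -0.47. Spp1, an abundant protein of bone matrix, was at 25.7, 17.8 and 7.31 RPKM, and Col1a1, the main collagen of bone, at 13.7, 21.3 and 5.45 RPKM. The summed level of endothelial markers was 48.0, 43.3 and 57.3 RPKM, of erythroid markers 4510, 3682 and 1676 RPKM, of B cell markers 2138, 1729 and 1562 RPKM and of T and NK cell markers 103, 66.9 and 90.8 RPKM. Most erythroid markers did not share the fall of their sum at 5 against 0 days. Of 11 tested 2 were at least 2-fold lower, beside 5.91% of all genes, and 6 were above 0, with a median of 0.07. The part of these cells in the results was not tested.

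The partners of versican in the matrix were set beside it. The list of 29 genes held those of hyaluronan, its receptors, related proteoglycans, Adamts proteases and enzymes that build chondroitin sulfate chains. Of these 25 had a row and 14 were tested at 5 against 0 days. Most of the tested genes were the chain-building enzymes, such as Chsy1, Chst12 and Xylt1. Hmmr, a hyaluronan receptor of dividing cells (1.12), and Hyal2, a hyaluronidase (1.00), were at least 2-fold higher, a share (14.3%) near the 15.5% of all genes, and neither was with the length trend removed. Srgn, the proteoglycan of myeloid granules, fell from 1911 to 1362 and 785 RPKM (-1.28), and Tnfaip6, which links proteins to hyaluronan, fell by 2.87 on the log2 scale. Of the 14 genes 10 were above 0, and the median was 0.56, or -0.03 with the trend removed. Cd44, the main hyaluronan receptor of leukocytes, was at 101, 117 and 89.2 RPKM. Aggrecan (Acan), the cartilage relative of versican, had 0, 1 and 0 reads.

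Integrins and other partners of fibronectin gave a mixed course. Of 27 listed 26 had a row and 20 were tested at 5 against 0 days. Itga4 (1.69), Itga5 (1.24) and Itgav (1.21), the α chains of the fibronectin-binding integrins α4, α5 and αv, and Tns3 (1.29), a protein of their adhesions, were at least 2-fold higher, beside 15.5% of all genes. None of the 4 was so with the length trend removed. Itga4 was at 20.2, 41.9 and 65.5 RPKM, with a ratio of 0.76 after removal of the trend at its 9833 bases. Mmp8 (-2.53), Plaur (-2.18), Mmp9 (-1.81), Col1a1 (-1.31) and Tgm2 (-1.31) were at least 2-fold lower, beside 5.91% of all genes, and the matrix metalloproteinases Mmp8 and Mmp9 are neutrophil proteases also counted among the late neutrophil markers. The median was 0.13, and -0.28 with the trend removed.

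Of the thrombospondin family only Thbs1 was present at a level that could be followed. Thbs2, Thbs3, Thbs4 and Comp had 14 reads or fewer in every library. Among 8 tested thrombospondin receptors and partners 3 were at least 2-fold higher at 5 against 0 days, beside 15.5% of all genes, and none lower, beside 5.91%. Their median was 0.66, beside 0.31 for all genes. With the length trend removed 2 were at least 2-fold higher, beside 5.05% of all genes, and the median was 0.17. With TMM scaling the median was 0.35, beside 0.01 for all genes. Lrp1, which takes up thrombospondin complexes, rose from 2.88 to 7.83 and 15.4 RPKM (2.38, and 1.29 with the length trend removed), Scarb1, a lipoprotein receptor related to Cd36, had a ratio of 1.58, and Tgfb1, the precursor that Thbs1 activates, rose from 104 to 148 and 225 RPKM (1.11). Tgfb1 was short of 2-fold with the length trend removed (0.91) and with TMM scaling (0.80). Cd47 was at 100.3, 91.4 and 97.6 RPKM and Cd36 at 7.86, 11.7 and 8.60 RPKM, so neither receptor followed Thbs1 past 2-fold.

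The other coagulation and transglutaminase genes gave a mixed course. Of 37 listed 34 had a row and 19 were tested at 5 against 0 days, of which 2 rose by 2-fold or more, beside 15.5% of all genes, and 4 fell by as much, beside 5.91%, with a median of -0.04. Pros1, the anticoagulant protein S, rose from 1.46 to 2.85 and 6.07 RPKM (1.99, and 1.51 with the length trend removed), and Tgm1, the keratinocyte transglutaminase, had a ratio of 1.12, which was 0.72 with the trend removed and 0.83 with TMM scaling. Plaur, the urokinase receptor (-2.18), Tgm2, tissue transglutaminase (-1.31), Serpinb2, an inhibitor of plasminogen activators (-1.32), and tissue factor (F3, -2.92) were lower. F3 had 72, 44 and 7 reads, so its value rests on few reads. F13b, the carrier subunit of factor XIII made in the liver, had 0, 1 and 0 reads, so the A subunit was measured without its partner. Of the perforin family Prf1, the perforin of cytotoxic lymphocytes, was the only relative of Mpeg1 tested, with 84, 83 and 93 reads, or 2.63, 2.67 and 2.92 RPKM.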

How the data were processed

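RNA of flushed BM cells was sequenced in 3 libraries, 1 each for 0, 3 and 5 days of LECT2. Libraries were made with an oligo(dT) kit without strand marking. The methods name Cufflinks for quantitation, the submitters' processing notes list mm8, and the aligner is not given in the sources used here. The authors deposited 3 tables of pairwise comparisons with whole read counts per gene, the gene length in bases and RPKM, which is the count scaled to gene length and to all reads on genes. The tables also hold the authors' log2 ratios, P values and false discovery rates of their own comparisons, which were not used. The counts and RPKM of a library were the same in each table that holds it (0 cells differed).

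Repeated names were represented by their row of highest mean RPKM. The log2 ratio used RPKM + 0.1, so changes of low genes come out too small. Genes with at least 1 RPKM in either library were counted as tested, and a change was called at 2-fold. For a ratio of 2 counts, 95% intervals were exact (Clopper-Pearson) and cover counting error only. The length trend was a lowess with a span of 0.3 (statsmodels 0.14.6) over all tested genes. TMM factors came from edgeR 4.0.16 (0.913, 0.968 and 1.13 at 0, 3 and 5 days), and median-of-ratios factors from DESeq2 1.42.0. No test was run, since 1 library per time point leaves no residual spread. Positions came from GENCODE M21 (GRCm38) and promoters from RefSeq (GRCm38.p6), both by symbol, and no coordinate of the authors' build was used. The scripts were tested on simulated data. Other settings were pseudocounts of 1 and 0.01, 3 other scalings, the sum of all rows, minimums of 5 RPKM and none, a threshold of 4-fold, and subtraction of the median of each of 10 length classes. The lengths of the Vcan transcripts were tried after seeing the data. The 5 genes and all lists were chosen with earlier results of these data known, and the lists were written from general knowledge. The rule for naming genes takes the 3 genes of each list with the highest mean RPKM and those with its highest and lowest ratio at 5 against 0 days. Not every gene it takes is printed, and list genes outside it were named after their values were seen. Spi1, Wfdc21 and Adgre1 were found under older names.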

Additional observations from a re-analysis of the deposited data

How the results depend on the processing

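No paired analysis was possible because each time point had 1 library. For the same reason no library could be left out, and counting error, printed beside the ratios, is the only error these files give. The median log2 ratio of the 5 genes kept its direction in every setting run. At 3 against 0 days it was 1.29 as reported, 1.09 with a pseudocount of 1, 1.21 with TMM scaling, 1.21 with median-of-ratios scaling, 1.20 with scaling on the reads outside the 100 most abundant genes, 0.98 with the length trend removed, 0.98 with the median of the length class subtracted and 0.99 with TMM scaling and the length trend removed. At 5 against 0 days it was 2.34 as reported, and 2.03, 2.04, 2.14, 1.78, 1.76 and 1.77 with the same settings from TMM scaling on. At 5 against 3 days it was 1.05 as reported, and 0.82, 0.83, 0.94, 0.75, 0.74 and 0.75.

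The one ratio of the 5 genes that changed sign was that of Thbs1 at 3 against 0 days, which was -0.054 with the median of its length class subtracted. Thbs1 lies at the short edge of that class, and its 3-day ratio of 0.50 exceeds the median of the class below (0.42). A pseudocount of 0.01 moved none of the 15 ratios beyond their intervals, the sum of all rows could not change them because each gene has 1 row, and removing the length trend moved all 15.

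The number of genes at least 2-fold higher at 3 against 0 days was 462 as reported, 190 with a pseudocount of 1, 293 with the length trend removed, 297 with the class median subtracted, 299 with TMM scaling and the trend removed, 236 at a minimum of 5 RPKM, 830 with no minimum and 36 at 4-fold. At 5 against 0 days it was 1786 as reported, 1140 with a pseudocount of 1, 832 with TMM scaling, 858 with median-of-ratios scaling, 1114 with scaling on reads outside those 100 genes, 581 with the length trend removed, 579 with the class median subtracted, 590 with TMM scaling and the trend removed and 153 at 4-fold. At 5 against 3 days it was 222 as reported, 52 with a pseudocount of 1, 74 with TMM scaling, 76 with median-of-ratios scaling, 125 with scaling on reads outside those 100 genes, 75 with the length trend removed, 70 with the class median subtracted, 73 with TMM scaling and the trend removed, 94 at a minimum of 5 RPKM, 578 with no minimum and 13 at 4-fold. The cause of these shifts was not tested.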
